A study of Arabidopsis thaliana with 3 samples.

Results

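The regions described here are the HDA6-GFP ChIP-seq regions in the gene-free sequence around the centromere of Arabidopsis thaliana chromosome 2. A region was a member when its midpoint lay between 0.6 and 6.6 Mb on chromosome 2, outside the stretch from 3.0 to 3.6 Mb where the reference holds an insertion of mitochondrial DNA, and more than 1 kb from every protein-coding gene body. There were 984 such regions, 13.0% of the 7547 regions in the list. Of the 1300 regions in the window, 157 lay in the stretch left out, 103 had their midpoint in a protein-coding gene body and 56 within 1 kb of one.

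The plants were 14-day-old Col-0 seedlings grown in long days that carried HDA6 fused to green fluorescent protein under the HDA6 promoter, and chromatin was precipitated with an antibody against GFP. The labels do not say whether the plants also kept the native HDA6 gene, and no ChIP from plants without the fusion was analysed here. For ChIP sequencing, DNA of at least 5 immunoprecipitations was pooled. The series holds 2 ChIP samples and 1 input sample, but each kind is represented by 1 list of positions with no value per region, so the numbers below are counts and widths without a replicate error, the read depth is unknown, and no difference was tested.

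Histone deacetylase 6 (HDA6) is an RPD3-type enzyme that removes acetyl groups from histone tails. It is known in Arabidopsis for keeping transposons, transgenes and ribosomal RNA gene copies silent, together with DNA methylation. The sequence around Arabidopsis centromeres is compact heterochromatin, rich in retrotransposons and DNA transposons and poor in expressed genes. RefSeq commonly annotates transposon genes there as pseudogenes, so annotated pseudogenes are the class in which transposon bodies are expected to be found, although the gene table does not name the kind of element.

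The regions were short and numerous. The sequence in which a midpoint could be a member, called gene-free sequence below, measured 3471117 bp, and ChIP regions covered 12.1% of it. The density was 283 regions per Mb of gene-free sequence, against 37.3 per Mb in the gene-free sequence of the rest of chromosome 2, where the same distance rule left 76 regions. Widths ran from 180 to 3805 bp with a median of 355 bp (95% interval of the median 345 to 362 bp, for counting error only). The quartiles were 287 and 475 bp. Widths over 1 kb were found for 24 regions (2.44%), and these held 10.7% of the bases in members.

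The regions were not spread evenly along the pericentromere. Between the chromosome start side and the stretch left out, from 0.6 to 3.0 Mb, lay 234 regions at 195 per Mb of gene-free sequence, and from 3.6 to 6.6 Mb lay 750 at 330 per Mb. The centromere midpoint was set at 3.6 Mb. The left side therefore lacks the sequence nearest to it, and the sides are not matched in distance. In 500-kb bins the density was 54.6 per Mb at 0.6 to 1.1 Mb (5 regions) and 42.3 at 1.1 to 1.6 Mb (9 regions). It was 129 at 1.6 to 2.1 Mb, 273 at 2.1 to 2.6 Mb and 315 at 2.6 to 3.1 Mb (95 regions), a bin counted only up to 3.0 Mb. Past the stretch left out it was 450 per Mb at 3.6 to 4.1 Mb (200 regions), 406 at 4.1 to 4.6 Mb (165 regions), 294 at 4.6 to 5.1 Mb (125 regions) and 442 at 5.1 to 5.6 Mb (184 regions). The next 2 bins held 39 and 37 regions, or 135 and 127 per Mb. The dense part therefore ended between neighbouring bins on the right side, and was flanked on both sides by sequence with lower density.

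**Figure D1:**
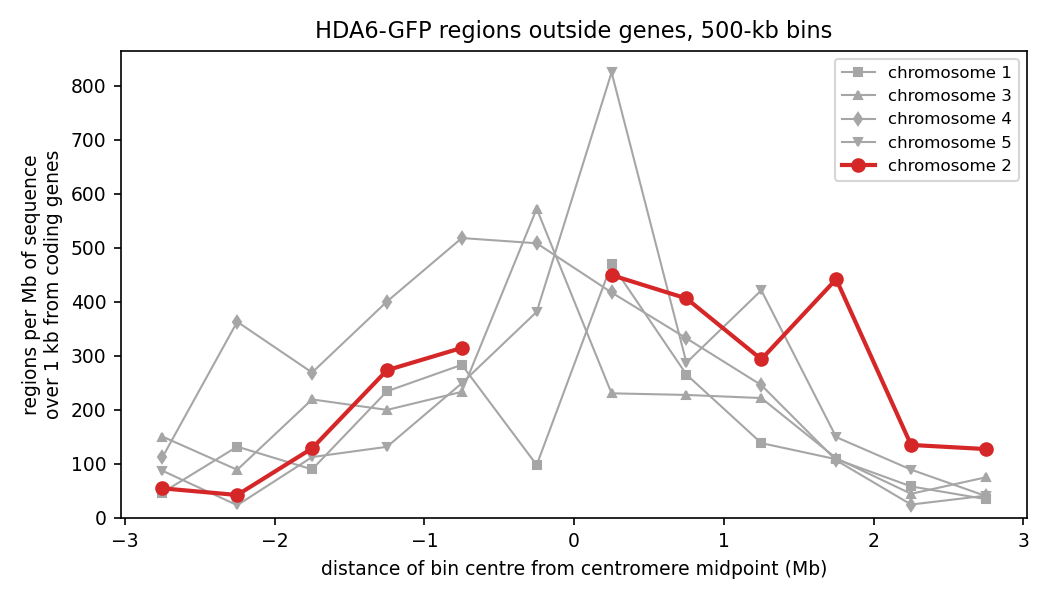
Density of HDA6-GFP regions per Mb of gene-free sequence in 500-kb bins, plotted against the distance of the bin centre from the centromere midpoint in Mb, for chromosome 2 (thick line) and for regions chosen by the same rule on the other 4 chromosomes. On chromosome 2 the line is broken where sequence was left out, and the bin at 5.1 to 5.6 Mb stands at 442 per Mb, next to 135 in the following bin.

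The core sections, 2.4 to 3.0 Mb and 3.6 to 5.7 Mb, were set after the counts had been seen and are given as a description. They held 847 regions at 386 per Mb, and the outer sections, 0.6 to 2.4 Mb and 5.7 to 6.6 Mb, held 137 at 107 per Mb. ChIP regions covered 15.6% of gene-free sequence at 2.4 to 3.0 Mb and 17.3% at 3.6 to 5.7 Mb, against 2.98% at 0.6 to 2.4 Mb and 4.90% at 5.7 to 6.6 Mb. Widths were less different, with medians of 356 and 363 bp in the core and 317 and 316.5 bp in the outer sections. The widest region of the outer sections measured 947 bp, so all 24 regions over 1 kb lay in the core.

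Annotated pseudogenes held most of the regions. The midpoint lay in an annotated pseudogene for 646 of 984 regions, or 65.7% (95% Wilson interval 62.6 to 68.6%, for counting error only), whereas such pseudogenes made up 44.0% of the gene-free sequence, a ratio of 1.49. Of the 646, 626 lay in pseudogenes and 20 in transcribed pseudogenes. A further 4 midpoints lay in long non-coding RNA genes and 334 in no annotated gene. Regions covered 17.7% of the pseudogene bases and 7.70% of the other gene-free bases, with 423 regions per Mb in the former and 174 per Mb in the latter. The excess in pseudogenes was not particular to the pericentromere. In the gene-free sequence of the rest of chromosome 2, 53 of 76 midpoints (69.7%) lay in pseudogenes. These made up 17.1% of that sequence, a ratio of 4.08, with 152 regions per Mb in pseudogenes and 13.6 outside them. Midpoints in pseudogenes had a median width of 358 bp, those in transcribed pseudogenes 333 bp and those in no annotated gene 346 bp.

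The contrast between pseudogenes and other sequence was found in both kinds of section. In the core there were 519 regions per Mb in pseudogenes and 261 per Mb outside them. In the outer sections there were 201 and 54.0 per Mb. Pseudogene sequence in the outer sections thus held fewer regions per Mb than sequence outside pseudogenes did in the core.

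Region density was also higher farther from protein-coding genes. It was 134 per Mb at 1 to 2 kb from the nearest protein-coding gene (70 regions), 188 at 2 to 5 kb (181 regions), 297 at 5 to 10 kb (238 regions), 386 at 10 to 20 kb (233 regions) and 438 at 20 to 50 kb (230 regions). Beyond 50 kb it was 578 per Mb, from 32 regions in 55353 bp. The order held inside and outside pseudogenes with one exception: in pseudogenes the density was 269, 281, 454, 532, 503 and 702 per Mb from the nearest to the farthest class, so it dipped at 20 to 50 kb. Outside them it was 97.0, 117, 154, 227, 370 and 398 per Mb. Distance from genes went together with position, as the core holds the longest gene-free stretches. Within the core alone the density was 293 per Mb at 1 to 5 kb, 399 at 5 to 20 kb and 462 beyond 20 kb, and within the outer sections it was 83.1 at 1 to 5 kb and 166 at 5 to 20 kb. The outer sections held 0 regions beyond 20 kb, where they had only 0.0135 Mb of gene-free sequence.

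**Figure D2:**
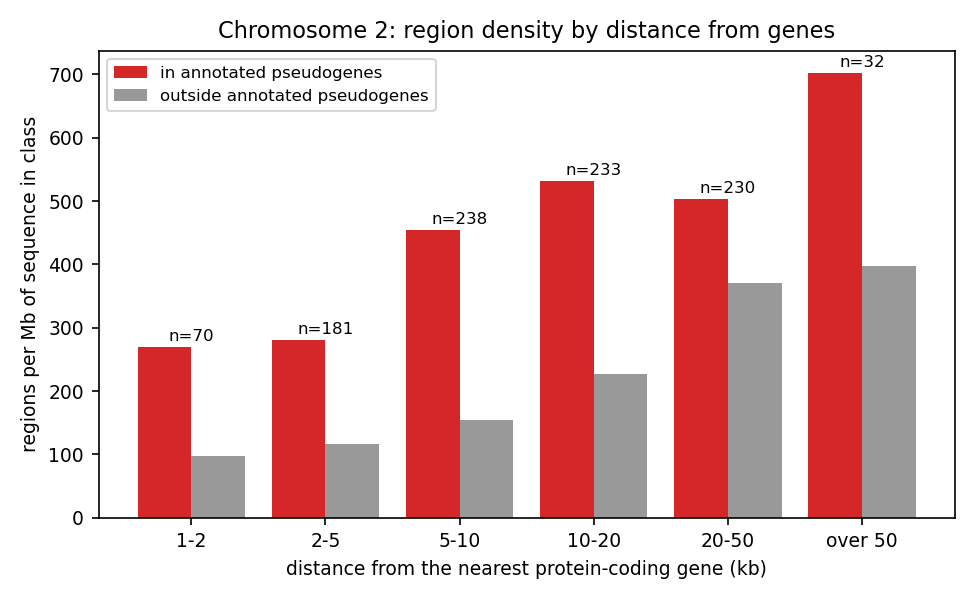
Regions per Mb of gene-free sequence on chromosome 2 by distance from the nearest protein-coding gene in kb, separately for sequence in annotated pseudogenes and outside them, with n the regions of both kinds together. Outside pseudogenes the bars go from 97.0 to 398 per Mb, and in pseudogenes from 269 to 702.

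Protein-coding genes cut the gene-free sequence into 308 stretches, and 127 of them held a region. All 29 stretches of 20 to 50 kb, all 12 of 50 to 100 kb and both longer ones held at least 1 region, against 44 of 59 stretches of 10 to 20 kb, 25 of 54 of 5 to 10 kb and 15 of 152 shorter ones. Longer stretches offer more room, but the density differed too, at 60.9 regions per Mb in stretches up to 5 kb and 429 per Mb in those of 50 to 100 kb. The 10 stretches with most regions held 393 members (39.9%) in 22.7% of the gene-free sequence.

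The stretch with most regions lay between the protein-coding genes AT2G10025 and AT2G10260, with 61 regions in 133246 bp and 33 annotated pseudogenes. Next came the stretch between AT2G12646 and AT2G12875, with 51 regions in 118107 bp, and that between AT2G10608 and AT2G10615, with 50 in 79917 bp. In the first of these 63.9% of midpoints lay in pseudogenes, in the second 80.4% and in the last 44.0%. A stretch bounded by ELF4-L3, a gene of the EARLY FLOWERING 4-like family, held 34 regions in 67839 bp on the left side of the centromere. The stretch between SCPL43, a serine carboxypeptidase-like gene, and NUB1 held 26 in 40147 bp, or 648 per Mb. The longest stretch without a region, 19563 bp between AT2G15130 and AT2G15170, held 4 pseudogenes and lay in the outer section on the right.

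**Figure D3:**
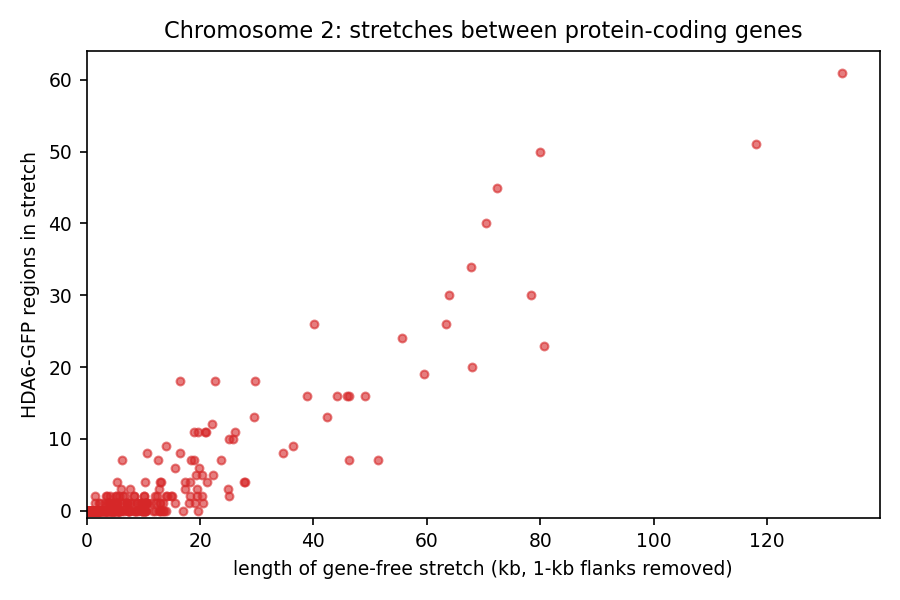
Number of HDA6-GFP regions in each gene-free stretch of chromosome 2 against the length of the stretch in kb, each point being 1 stretch between neighbouring protein-coding genes after removal of 1-kb flanks. The longest stretch, of 133 kb, holds 61 regions, and most stretches up to 5 kb hold none.

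Counted by gene, 363 of the 678 annotated pseudogenes whose own midpoint met the rule had a region over at least 1 bp, or 53.5% (95% Wilson interval 49.8 to 57.3%). Over all 5 chromosomes the share was 41.8%, which includes pseudogenes of the arms. For pseudogenes other than transcribed ones it was 347 of 605 (57.4%), against 48.7% over all 5 chromosomes. For transcribed pseudogenes it was 16 of 73 (21.9%), against 12.2%. Under the same rule on the other 4 chromosomes, without the arms, the shares were 51.8% of 2494 and 22.6% of 221. Transcribed pseudogenes thus had a region about as often on chromosome 2 as there. Transcribed pseudogenes were shorter, with a median of 868 bp against 2148 bp.

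Longer pseudogenes carried a region more often. The share with a region was 32.7% of 55 pseudogenes up to 500 bp, 41.8% of 141 of 500 to 1000 bp, 39.7% of 141 of 1 to 2 kb, 64.9% of 222 of 2 to 4 kb and 72.3% of 119 of over 4 kb. The number of regions per kb of pseudogene cannot be compared across lengths. A region that only touches a pseudogene counts in full in every class, which raises the number most for short ones. It was highest in the shortest class, where a region that only touches a pseudogene counts in full, 0.660 at 500 to 1000 bp and 0.418 to 0.441 in the longer classes. On the other 4 chromosomes the shares of the same length classes were 23.6, 34.5, 43.9, 57.5 and 69.2%, and every interval overlapped that of chromosome 2.

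**Figure D4:**
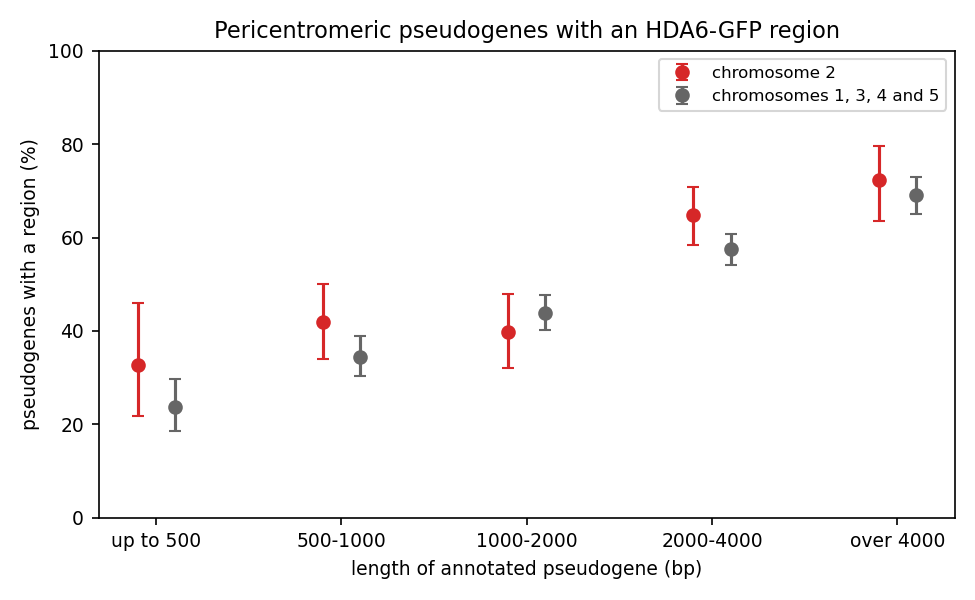
Share of annotated pseudogenes with an HDA6-GFP region, in percent, by pseudogene length in bp, for chromosome 2 and for the other 4 chromosomes under the same rule, with 95% Wilson intervals that cover counting error only. On chromosome 2 the share is 32.7% up to 500 bp and 72.3% over 4000 bp, and the intervals of both sets overlap in each length class.

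Many pseudogenes held several listed regions. Whether these are separate sites or parts of a broader one cannot be told, as the settings that split or join regions are not known here. Of the 363 pseudogenes with a region, 175 had at least 2, 86 at least 3 and 19 at least 5. The median share of such a pseudogene that lay in regions was 27.6%. AT2G12930, of 6130 bp, had the most, with 10 regions over 59.2% of its length, followed by AT2G13390 with 9 over 68.3% of 8789 bp. AT2G06470 and AT2G09187 had 7 each, over 93.2% and 61.1%, and AT2G10280 had 6 over 77.3%. The gaps between neighbouring regions were 16 to 126 bp at AT2G06470 and 2 to 967 bp at AT2G09187. The same count of 6 was found for AT2G10820 (36.4%), AT2G11940 (53.1%) and AT2G12210 (56.6%), so the covered share varied by more than the count.

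Near-complete coverage was rare among long pseudogenes. At least 90% of the body was covered in 14 pseudogenes, of which AT2G10780 (5376 bp, 98.2%) and AT2G06470 (4836 bp, 93.2%) were over 2 kb. In turn, 33 of the 119 pseudogenes of over 4 kb had no region, and of the 19 over 6 kb AT2G05660, AT2G11950 and AT2G14470 had none. Pseudogenes with a region also lay next to each other: 23 runs of at least 5 neighbouring pseudogenes with a region held 171 of the 363, and the longest run was 16.

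Within pseudogenes the regions showed no narrow preferred place. For 577 midpoints in pseudogenes of over 1 kb, the distance to the nearer end had a median of 0.214 of the pseudogene's length, where evenly spread midpoints would give 0.25. The share of midpoints was 23.9% in the outermost 10% of the length at either end, and 22.5, 18.9, 15.4 and 19.2% in the following steps of 10% towards the middle. On the other 4 chromosomes the median was between 0.213 and 0.222. The gene table gives no strand, so starts and ends were pooled.

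The annotated pseudogenes with a symbol of their own were few. AGL88, a pseudogene related to the AGAMOUS-like MADS-box factors, had a region of 340 bp at 4833270 to 4833609 that covered 87.2% of it and lay 25998 bp from the nearest protein-coding gene. RLP18, a pseudogene of the receptor-like protein family, was touched by a region of 452 bp at 6509183 to 6509634 over 7.14% of its length, and the midpoint lay 89 bp outside it. SADHU1-1, a non-coding retrotransposon, had no region, and the nearest member lay 1094 bp away. Of the 16 Sadhu elements in the gene table, 4 had a region (25%), against 41.8% of all annotated pseudogenes over the 5 chromosomes.

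Few genes of other RNA classes lay in the gene-free sequence, and 9 of those whose midpoint met the rule had a region. Of 59 long non-coding RNA genes in the gene-free sequence 6 had a region (10.2%, against 1.90% over all 5 chromosomes), and these were 3 overlapping pairs, AT2G04985 with AT2G04995, AT2G05465 with AT2G05485 and AT2G05825 with AT2G05835, so 3 regions account for all 6. Another long non-coding RNA gene, AT2G04365, whose own midpoint lay closer to a coding gene, held the first member, at 823684 to 824041. Among microRNA genes 2 of 6 had a region (4.29% over all 5 chromosomes): a region of 273 bp at 2063711 to 2063983 overlapped 63.6% of MIR8180, and one of 224 bp at 5080624 to 5080847 contained all of MIR8168. The snoRNA gene AT2G05525 lay wholly in a region of 674 bp at 4054942 to 4055615, whose midpoint lay in the pseudogene AT2G10510. It was 1 of 3 snoRNA genes there (0.348% over all 5 chromosomes). The 17 genes of the class misc_RNA and 6 of the class ncRNA had none.

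Regions outside annotated genes lay within 1 kb of a pseudogene only somewhat more often than the sequence available to them. Of the 334, 41 overlapped a pseudogene edge, 175 (52.4%) had their midpoint within 1 kb of one and 24 lay over 5 kb away, with a median distance of 916 bp. For comparison, 45.4% of the gene-free sequence outside pseudogenes lay within 1 kb of one. With the 4 midpoints in long non-coding RNA genes included, the density outside pseudogenes was 221 per Mb within 0.5 kb, 160 at 0.5 to 1 kb, 198 at 1 to 2 kb, 167 at 2 to 5 kb, 105 at 5 to 10 kb and 52.6 beyond 10 kb, where 7 regions lay. In all, 530 of 984 members lay wholly inside pseudogene bodies, 157 partly and 297 not at all.

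The widest regions were found both in pseudogenes and in sequence with no annotated gene. The widest member, 3805 bp at 5198087 to 5201891, overlapped no annotated gene. It was followed after 43 bp by a region of 2987 bp at 5201935 to 5204921. After another 24 bp came one of 1077 bp at 5204946 to 5206022, so that the 3 covered 99.2% of 7936 bp. The midpoint of the widest member lay 30685.5 bp from the nearest protein-coding gene. Regions of 2754 bp at 4237849 to 4240602 and 3173 bp at 4241185 to 4244357 had their midpoints in AT2G10780. The larger one also overlapped AT2G10790 and had 73.5% of its length in annotated pseudogenes. Regions of 2702 bp at 3950608 to 3953309 and 2277 bp at 3954893 to 3957169 lay at AT2G10280 and at AT2G10285 with AT2G10290. AT2G13390 held the midpoint of a region of 2626 bp at 5565918 to 5568543, of which 58.9% lay in annotated pseudogenes.

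The others of the 10 widest members were a region of 2381 bp at 3605555 to 3607935, with no annotated gene, and 2 neighbours. These were 1789 bp at 2562894 to 2564682 and 1878 bp at 2564699 to 2566576, with midpoints in AT2G06460 and AT2G06470. The last pair was separated by 16 bp. The region at 3605555 to 3607935 lies within 10 kb of the stretch left out for its mitochondrial insertion.

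Members came in groups. The gap from one member to the next had a median of 1222 bp and a lower quartile of 370 bp, and 445 of 982 gaps (45.3%) were at most 1 kb. By the same rule on chromosomes 1, 3, 4 and 5 this share was 44.8, 48.7, 53.5 and 59.9%, so such grouping was not particular to chromosome 2. Joined across gaps of up to 1 kb, the members formed 539 groups, of which 337 were single regions and 34 had at least 5. Groups of at least 2 held 647 members (65.8%), and those of at least 5 held 240. The largest group had 15 regions between 5302985 and 5313141, with widths of 225 to 643 bp, of which 14 touched AT2G12920 or AT2G12930 and 1 touched no pseudogene. A group of 12 lay at 4180357 to 4190335, where 4 regions touched AT2G10660 or AT2G10670 and the other 8 lay in unannotated sequence between them. In another group of 12, at 5570628 to 5580567, 10 regions touched AT2G13390, AT2G13400 or AT2G13410 and 2 touched none. The closest members, at 1630848 to 1631128 and 1631130 to 1631371, were 1 bp apart, and the most isolated, at 1310000 to 1310371, lay 101568 bp from any other member.

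Larger groups with no annotated gene lay in the first 500-kb bin after 3.6 Mb. Of groups of at least 5 regions, 4 overlapped no annotated gene, and all of these lay there: 5 regions at 3609181 to 3613640, 6 at 3628810 to 3632928, 5 at 3661464 to 3664805 and 8 at 3712552 to 3719365. A further 19 groups of 2 to 4 regions overlapped no annotated gene, and these were found elsewhere in the window too. From 3.6 to 3.7 Mb there were 42 members at 503 per Mb, and 12 of them (28.6%, Wilson interval 17.2 to 43.6%) had their midpoint in a pseudogene, where pseudogenes made up 28.9% of the gene-free sequence. The stretch left out itself held 117 regions over 1 kb from protein-coding genes, which covered 38.4% of its gene-free sequence, and the widest measured 137370 bp.

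Input intervals lay over all members, as they covered 97.8% of the gene-free sequence. They enclosed 555 members (56.4%) completely, and the lowest covered share was 66.0%. The widest input interval over a member had a median of 1227 bp, whereas the 5389 input intervals with a midpoint in the gene-free sequence had a median of 441 bp. A wide interval covers more positions than a narrow one, so these medians are not on the same footing, and the covered share by interval width is. ChIP regions covered 8.70% of gene-free sequence in input intervals up to 500 bp, 11.8% in those of 500 to 1000 bp, 11.4% in those of 1 to 2 kb, 16.0% in those of 2 to 4 kb and 43.7% in wider ones. The last class made up 1.58% of the gene-free sequence and lay over 41 members (4.17%).

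Wide input intervals touched a few of the dense groups named above. The widest, of 8831 bp, lay over 12 members at and beside AT2G13390, and the next, of 6581 bp, over 5 members at AT2G10280 and its neighbours. The input intervals over the group of 15 regions at AT2G12920 and AT2G12930 were at most 1462 bp wide. Sequence present in several copies can widen input intervals, and how reads with several matches were treated is not given in the sources used here. Its part in the density of regions was not tested. For members over 1 kb wide the median of the widest input interval was 2626 bp, against 1106 bp for members of 250 to 350 bp. A wide member can meet more input intervals than a narrow one, so these medians are not on the same footing either.

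**Figure D5:**
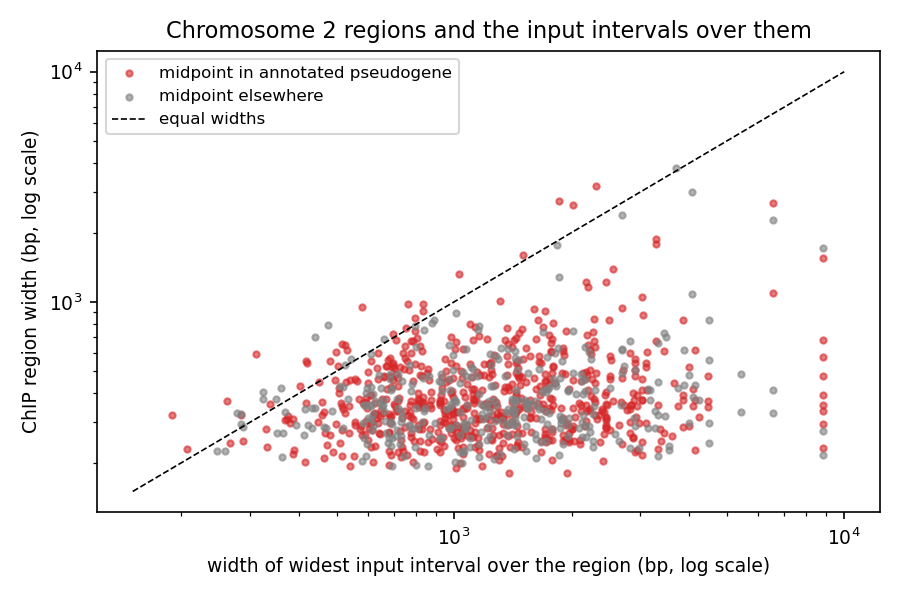
Width of each of the 984 chromosome 2 regions against the width of the widest input interval over it, both in bp on log scales, with regions in annotated pseudogenes and elsewhere marked separately and a dashed line of equal widths. Most regions lie below the line, with 4.07% wider than the input interval, and the columns of points at 8831 and 6581 bp are the regions that share the widest input intervals.

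The same kind of sequence was taken within 3 Mb of the centromere midpoints of the other chromosomes. Beside it, chromosome 2 was in the middle of the range for density and at the upper end for the share of midpoints in pseudogenes. The density was lowest on chromosome 1, at 201 per Mb from 757 regions, and highest on chromosome 4, at 349 per Mb from 1231 regions. Chromosome 3 had 229 per Mb (959 regions), below the 283 of chromosome 2, and chromosome 5 had 298 (1173 regions). The share of midpoints in pseudogenes was 65.7% on chromosome 2 and 63.3, 56.0, 49.4 and 48.0% on chromosomes 4, 3, 1 and 5. The interval of chromosome 4, 60.6 to 65.9%, overlapped that of chromosome 2. As a ratio to the pseudogene share of the gene-free sequence it was 1.49 on chromosome 2 and 1.48, 1.25, 1.41 and 1.16 on chromosomes 4, 3, 1 and 5. Other pseudogene measures were higher on chromosome 4, where 64.0% of pseudogenes had a region and 23.9% of pseudogene bases were covered. On chromosome 2 these were 53.5 and 17.7%. On chromosomes 1, 3 and 5, a 500-kb bin beside the centromere midpoint held 225, 282 and 401 regions. Of their midpoints 20.9, 30.9 and 27.7% lay in pseudogenes. The bin at 3.1 to 3.6 Mb of chromosome 2 was left out. Median widths were between 340 and 368 bp on all 5. Widths over 1 kb were found for 2.44% of regions on chromosome 2 and for 3.43 to 6.78% on the others, and the widest region was 3805 bp against 6795 to 21186 bp, with the stretch of the mitochondrial insertion left out on chromosome 2 and nothing left out elsewhere.

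The limits of the rule cut through a continuous list. The last gene-free region before 0.6 Mb lay at 582103 to 582323 (221 bp) and the first after it at 823684 to 824041 (358 bp). At 3.0 Mb the last member, 2973507 to 2973874, was followed by a region at 3000979 to 3001257, and at 3.6 Mb the region at 3599633 to 3599972 was followed by the first member on that side, 3601410 to 3601825. At 6.6 Mb the last member was 6526777 to 6527073 and the next region 6621422 to 6621650. The region just within 1 kb of a gene had its midpoint 988 bp away, and the first member beyond that distance 1004 bp.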

How the data were processed

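The authors deposited positions alone: a list of ChIP regions and another of input intervals, each line naming a chromosome with the first and last base. The tools named per the submitters' processing notes are Bowtie and SICER, and the build is TAIR10. Versions, settings, whether replicates were pooled and how reads with several matches were handled are not known here. Each list was treated as pooled over its group, and printed starts are counted from 1.

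Genes came from the RefSeq table of assembly TAIR10.1, which supplied names and gene borders. No base sequence was analysed here. A gene had a region when they overlapped by at least 1 bp. Gene-free sequence was the window minus protein-coding genes and 1-kb flanks. Annotated pseudogenes pool pseudogenes and transcribed pseudogenes. Other chromosomes used 3 Mb on either side of 15, 14, 4 and 11.7 Mb (chromosomes 1, 3, 4 and 5). Intervals are Wilson intervals at 95%, or order-statistic intervals for medians. They cover only counting error, and neighbouring regions are not independent.

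Genes and regions named were the 10 widest members, the pseudogenes with most regions, those with a symbol, RNA genes at members, and the closest, most isolated and limiting members. Groups, stretches, pseudogenes without a region and the Sadhu elements were named after their values were seen. The members and lists were chosen with earlier results of these data known. Region arithmetic was tested on simulated data, with Python 3.11.15, pandas 2.3.3 and scipy 1.17.1.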

Additional observations from a re-analysis of the deposited data

How the results depend on the processing

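Each of 5 values (number of members, share in pseudogenes, median width, covered share of gene-free sequence and share of pseudogenes with a region) was computed again under 9 alternatives named at the start and 2 chosen after seeing the data. Of these 55 values, 38 stayed within 1.5 times the count or inside the counting interval of the value given above. The share of midpoints in pseudogenes stayed inside its interval under all 11 alternatives, between 64.2 and 67.4%. The covered share moved under each, partly because its interval over single bases is narrow. It was 11.3% with a distance of 500 bp from genes, 13.3% with 2 kb, 14.97% within 2 Mb of the centromere midpoint, 12.2% within 4 Mb, which takes in the ribosomal RNA genes at the chromosome start, 14.3% with 3.0 to 3.6 Mb kept, 11.9% when any overlap with a gene or flank excluded a region, 11.3% without the 10 widest members, 11.74% without 3.6 to 3.7 Mb and 11.5% without input intervals over 4 kb. Within 2 Mb, 59.3% of pseudogenes had a region. Keeping only regions at or above the median nuclear width of 337 bp left 554 members with a median of 458.5 bp, 8.69% covered and 38.1% of pseudogenes with a region. Joining regions across gaps of 600 bp gave 640 members with a median of 422 bp and 14.6% covered. No paired analysis was possible because neither list carries replicates, and read depth, which sets how many regions can be found, is unknown.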
